A study of Danio rerio with 21 samples.

Results

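Nuclei tagged through mpeg1, a gene of macrophages, were pulled down from zebrafish hearts whose ventricular apex had been cut away. Their libraries, which also held many heart muscle transcripts, were compared between 1 and 5 days post injury (dpi), without reference to sham-operated hearts. The comparison used 5 of the 21 libraries of the series, 3 resected hearts at 1 dpi (replicates 2, 3 and 4) and 2 at 5 dpi (replicates 1 and 2), all those that the labels give for resected hearts at these days. From 1 to 5 dpi, 185 genes fell and 117 rose. The genes that fell were led by keratins, claudins and plakophilins, the intermediate filament, tight junction and desmosome proteins of epithelia, most of which were at or near 0 counts by 5 dpi. The genes that rose were led by the myosin heavy chain MYH6 and held sarcomere, mitochondrial and basement membrane genes.

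All fish, injured and sham alike, were adults (4 to 12 months in the methods) of 1 transgenic line (allele ox133) that carries mpeg1:BirA-Citrine on a bacterial artificial chromosome together with βactin:Avi-Cerulean-Rangap. In this line the regulatory sequence of mpeg1, a gene of macrophages, drives a biotin ligase fused to Citrine, and a β-actin sequence active in all cells drives a nuclear envelope protein carrying the Avi tag that the ligase biotinylates. Nuclei that hold both were pulled down on streptavidin beads, and their total nuclear RNA was amplified by the SMART-seq method. Each library came from a single heart according to the methods, but the labels name no separate animals, so p-values measure only the spread between these libraries.

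Macrophages enter an injured zebrafish heart within the first day, first with inflammatory cytokines and neutrophils and later with signals of clearance and repair. Resection leaves a fibrin clot rather than a frozen area of dead tissue, and the ventricle wall is then rebuilt by dividing cardiomyocytes. Nuclear RNA reports recent transcription more than the whole cell does. In bulk samples such as these, fewer nuclei of a type and less RNA per nucleus cannot be told apart.

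The 1 dpi libraries held 16213475 to 17851176 counts and 20122 to 21742 detected genes, and the 5 dpi libraries held 27628986 counts with 17582 genes (replicate 1) and 10577395 counts with 18663 genes (replicate 2). Replicate 2 at 5 dpi was the shallowest of all 21 libraries, which ranged up to 61141100 counts. The 10 most abundant genes took 18.4% to 21.6% of counts at 1 dpi and 29.2% and 29.5% at 5 dpi. Pearson's r across genes on log2(CPM + 1) was 0.937 to 0.952 within 1 dpi, 0.907 within 5 dpi and 0.879 to 0.909 between the days, so the 5 dpi pair differed from each other almost as much as the days did. Macrophage genes were present on both days. MPEG1 (ENSDARG00000055290), whose product forms pores in engulfed bacteria, had 17.7, 26.5 and 12.8 CPM at 1 dpi and 28.6 and 8.11 CPM at 5 dpi. The 29 gene IDs of macrophage and leukocyte identity together took 1006 to 1272 CPM at 1 dpi and 1004 and 469 CPM at 5 dpi. The 25 cardiomyocyte IDs took 56660 to 75360 CPM at 1 dpi and 191100 and 169700 CPM at 5 dpi. These values are normalised as described below, so they are not plain shares of counts, and they are not corrected for gene length. The libraries therefore contain many heart muscle transcripts beside those of macrophages, and their level in CPM was higher on day 5.

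Counts were normalised by TMM, a scaling that assumes most genes do not change, and are given as CPM, the counts of a gene scaled to a common library total. Of 17978 genes tested with edgeR's quasi-likelihood test, 302 were called at a Benjamini-Hochberg adjusted p-value under 0.05, which is 1.68% of them. The 185 genes that fell make up 1.03% of genes tested and the 117 that rose 0.651%. Before adjustment, p-values under 0.05 were reached by 1974 genes that were lower (11%) and 1515 that were higher (8.43%). Groups without overlap were common among all genes, with 16.3% higher in both 5 dpi libraries than in any 1 dpi library and 21.5% lower. All 302 called genes were without overlap, which selection by p-value favours. DESeq2's Wald test, run as an alternative, called 3.91% of 24934 genes higher and 5.47% lower.

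The genes that fell and the genes that rose differed in form. Of the 185 that fell, 121 held 3 counts or fewer in each 5 dpi library, taken here as the floor, while 8.13% of all genes tested were at this floor. Their median level was 18.9 CPM at 1 dpi and 0 CPM at 5 dpi. The 117 that rose were already detected on day 1, with a median level of 43.3 CPM that became 192 CPM, and none of them was at the floor in every 1 dpi library, as 0.25% of all genes tested were. The median log2 fold change of the 117 was 2.24, with a range of 1.59 to 8.09. The floors of the days are not alike, as they cover 2 libraries at 5 dpi and 3 at 1 dpi. A gene at the floor on 1 day also passed the expression filter only through its counts on the other day. The part of both in this contrast was not tested. The direction of all 302 held in every alternative that tested them. Their groups did not overlap and the alternatives refit the same counts, so a turn of direction could hardly occur. The number of calls did not hold. Leaving out 1 dpi replicate 2, 3 or 4 left 9, 2 and 4 genes that rose and 76, 19 and 26 that fell, and leaving out 5 dpi replicate 1 or 2 gave 226 and 433 that rose and 305 and 508 that fell. With the spread estimated over all 21 libraries, 4 genes rose and 0 fell, while 1186 genes had p-values under 0.05 before adjustment. Where fold changes against a group at the floor are given, they are lower bounds computed against 3 counts per library.

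**Figure D1:**
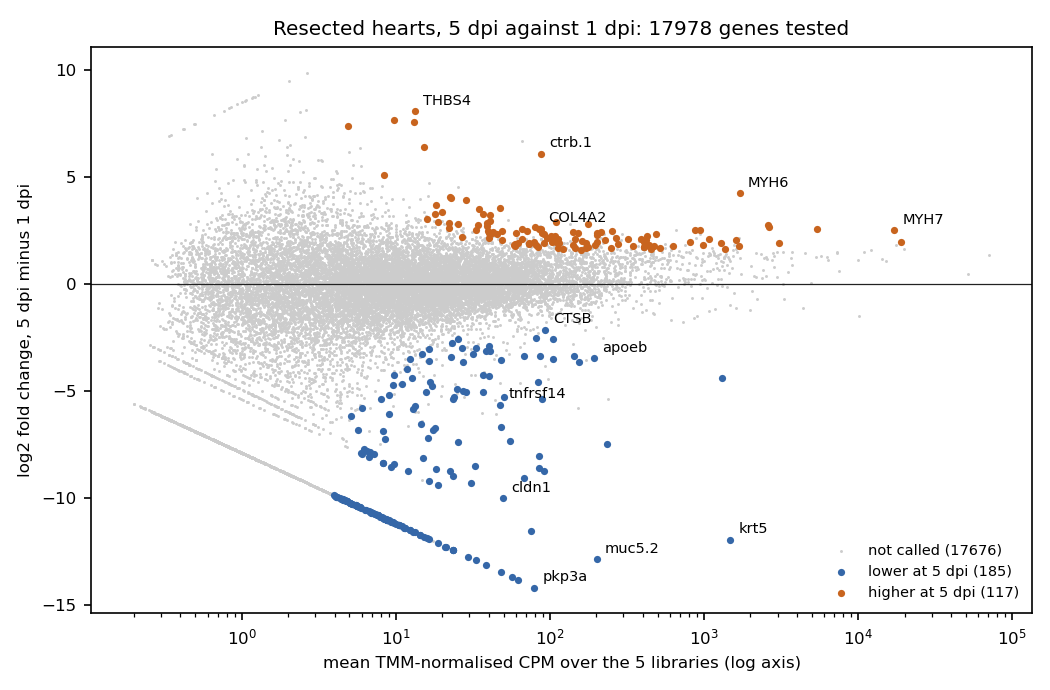
Log2 fold change from 1 to 5 dpi (vertical axis) against the mean TMM-normalised CPM over the 5 libraries (horizontal log axis) for 17978 genes, 1 point per gene. The 185 genes called lower (blue) reach much larger fold changes than the 117 called higher (orange). The diagonal line of points at the lower left holds genes with 0 counts in both 5 dpi libraries. The size of their fitted fold changes is not measured by the counts.

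Epithelial genes led the fall. In a list of epidermis, keratin and junction genes, 15 of 30 tested members fell and 0 rose, against 1.03% and 0.651% of all genes. Of the 30, 23 were lower in both 5 dpi libraries than in every 1 dpi library. All gene lists here were chosen with earlier results of these data known, so such shares are descriptions and no independent support. The median log2 fold change of the list was -6.16, and -4.48 with members at the floor set to their bound, against -0.10 for all genes. krt5 (ENSDARG00000058371), the keratin of basal epidermal cells, had 1725, 3165 and 2480 CPM at 1 dpi and 0.106 and 1.35 CPM at 5 dpi. All 3 libraries of day 1 were high and both of day 5 were nearly empty of it, with 2 and 12 counts (log2 fold change -11.95, SE 1.06, adjusted p-value 0.00194). krt1-19d, a further type I keratin, had 88.5, 62.6 and 158 CPM at 1 dpi and 0 CPM in both libraries at 5 dpi. The groups were far apart, and the fall was at least 414-fold (adjusted p-value 0.00194). krt17, a keratin of stressed and wounded epithelium in mammals, had 199, 278 and 701 CPM at 1 dpi and 3.99 and 0 CPM at 5 dpi, so replicate 4 was the highest on day 1 and replicate 1 kept a trace on day 5 (log2 fold change -7.50, SE 1.3, adjusted p-value 0.0261).

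Junction genes followed the keratins. The plakophilin pkp3a, which links desmosomes to keratin filaments, had 81.9, 146 and 169 CPM at 1 dpi and 0 CPM in both libraries at 5 dpi. Its fall was at least 532-fold (adjusted p-value 0.00194), and that of its relative pkp1b at least 219-fold (0.00194). The tight junction claudin cldn1 had 48.5, 79.3 and 121 CPM at 1 dpi and 0.0532 and 0.113 CPM at 5 dpi, a fall of at least 333-fold (0.00194). cldnb had 80.5, 104 and 191 CPM at 1 dpi and 0.0532 and 0 CPM at 5 dpi, at least 503-fold (0.00194), and cldni had 42.1, 39.6 and 82.9 CPM at 1 dpi and 0 CPM in both libraries at 5 dpi, at least 221-fold (0.0027). For each claudin the highest day 1 library was replicate 4 and no 5 dpi library exceeded 0.113 CPM. icn2, an S100-type calcium-binding protein of fish skin, fell at least 157-fold (0.0027) from 29.6 to 45.4 CPM.

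The remaining genes with the smallest p-values that fell belong to several classes. muc5.2, a gel-forming mucin, had 162, 292 and 552 CPM at 1 dpi and 0 and 0.113 CPM at 5 dpi. The 3 libraries of day 1 spread over a wide range but each lay far above day 5, and the fall was at least 1349-fold (adjusted p-value 0.00194). gpa33a, whose mammalian counterpart is a surface antigen of intestinal epithelium, had 32.5, 62.3 and 58.7 CPM at 1 dpi and 0.0532 and 0.113 CPM at 5 dpi, at least 206-fold lower (0.00194). ms4a17a.4, of the four-pass membrane protein family that includes the B cell antigen CD20 in mammals, had 35.5, 68 and 87.4 CPM at 1 dpi and 0 CPM in both libraries at 5 dpi, at least 256-fold lower (0.00267). tnfrsf14, a receptor of the tumour necrosis factor family, was the only one of the 12 genes with the smallest p-values to keep over 3 counts in both 5 dpi libraries, with 52.4, 89.8 and 91.6 CPM at 1 dpi and 1.33 and 1.8 CPM at 5 dpi. All day 1 libraries were high, and the groups did not come near each other (log2 fold change -5.65, SE 0.55, adjusted p-value 0.0027).

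Further epithelial genes among the 185 were chosen after their values were seen. The mucus cell gene agr2, a disulfide isomerase, had 75.5, 45.2 and 152 CPM at 1 dpi and 0.478 and 0.676 CPM at 5 dpi (log2 fold change -7.33, SE 0.77, adjusted p-value 0.00338). epcam, an adhesion molecule of simple and basal epithelia, had 55.4, 81.9 and 111 CPM at 1 dpi and 1.17 and 3.15 CPM at 5 dpi (log2 fold change -5.30, SE 0.64, adjusted p-value 0.00753). TP63, the transcription factor that defines basal epidermal cells, had 44.9, 60.5 and 85.2 CPM at 1 dpi and 7.55 and 6.98 CPM at 5 dpi, so that it was still read at 5 dpi in both libraries (log2 fold change -3.13, SE 0.48, adjusted p-value 0.0165). The keratin krt91 also stayed measurable, at 42.9 and 158 CPM at 5 dpi against 1586, 2080 and 2651 CPM at 1 dpi (log2 fold change -4.39, SE 0.64, adjusted p-value 0.0133). The epithelial transcription factor elf3 fell at least 125-fold, the integrin chain itgb6 at least 61.4-fold and the laminin chain lamb3 of epidermal basement membrane at least 56.5-fold, each with 0 counts at 5 dpi and adjusted p-values of 0.00445, 0.0133 and 0.0133. ms4a17a.2, ms4a17a.5 and ms4a17a.12 were also at 0 on day 5 and had each fallen at least 65.5-fold, the smallest of their bounds (adjusted p-value 0.0125 for each). Members of this family resemble each other, and reads could be split among near-identical copies.

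The fall did not extend to every keratin. krt8, the keratin of simple epithelia, had 1208, 841 and 1292 CPM at 1 dpi and 1352 and 933 CPM at 5 dpi, with the groups overlapping (adjusted p-value 0.975), and krt94 had 546, 867 and 1320 CPM at 1 dpi and 1279 and 1473 CPM at 5 dpi (0.493). krt4 had 586, 1079 and 1380 CPM at 1 dpi and 217 and 378 CPM at 5 dpi, lower without overlap but past no threshold (0.0956). These 3 genes made up most of the summed level of the list at 5 dpi, which was 3311 and 3405 CPM, against 7057 to 11840 CPM at 1 dpi. The number of epithelial genes that fell was 12, 7 and 7 of 30 without 1 dpi replicate 2, 3 and 4. Over all genes 0.448%, 0.111% and 0.153% fell in these refits. With the spread of all 21 libraries 0 epithelial genes fell, as did 0 of all genes. Without 5 dpi replicate 1 or 2 the fitted median of the list was -7.01 and -6.62, against -0.35 and -0.41 for all genes. At 5 dpi pkp3a, cldni, evpla, cldne and grhl3 were at 0 counts in both libraries. The genes of this paragraph other than pkp3a and cldni were chosen after their values were seen. The markers of epithelium are here the genes that fell, and the part of epithelial cells in the result was not tested.

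**Figure D2:**
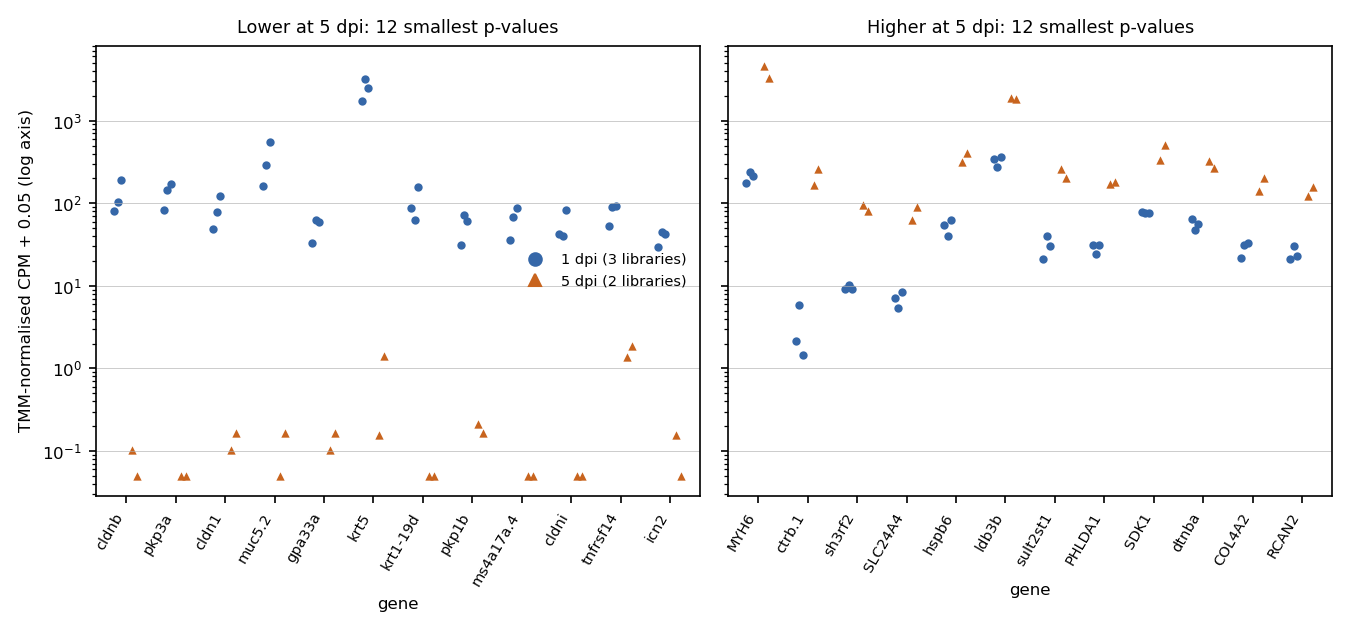
TMM-normalised CPM + 0.05 (log axis) in each library for the 12 genes with the smallest p-values that fell (left) and that rose (right), with circles for the 3 libraries at 1 dpi and triangles for the 2 at 5 dpi. On the left all but krt5 and tnfrsf14 are at 0.160 CPM or less in both 5 dpi libraries, and on the right the 5 dpi libraries stand above day 1 without overlap, with fitted folds of 5.28 to 68.2.

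Few macrophage identity genes passed the test. Of 27 tested, 1 fell and 0 rose, against 1.03% and 0.651% of all genes, 11 were lower without overlap and 1 higher, against 21.5% and 16.3%, and the median log2 fold change was -0.77. DESeq2's Wald test called 5 lower and 1 higher of 28, against 5.47% and 3.91% of the 24934 genes it tested. The gene that fell was apoeb, an apolipoprotein of lipid-handling tissue macrophages, with 246, 371 and 288 CPM at 1 dpi and 9.25 and 45.1 CPM at 5 dpi. All day 1 libraries were high, the 5 dpi libraries differed widely from each other and both lay below day 1 (log2 fold change -3.48, SE 0.66, adjusted p-value 0.0361). It was called in 6 of 10 alternatives. marco, a scavenger receptor for bacteria, had 52, 59.6 and 182 CPM at 1 dpi and 19.7 and 5.75 CPM at 5 dpi and did not pass (log2 fold change -2.93, SE 0.74, adjusted p-value 0.084). csf1ra, the receptor for the growth factor that sustains macrophages, had 3.2, 3.01 and 9.62 CPM at 1 dpi and 0.478 and 0.113 CPM at 5 dpi, lower without overlap but also past no threshold (adjusted p-value 0.171). c1qc, a chain of complement C1q, had 63.9, 54.1 and 49.5 CPM at 1 dpi and 78.7 and 31.3 CPM at 5 dpi, with groups that overlapped, as did MPEG1 (log2 fold change -0.04, SE 0.64, adjusted p-value 0.984). cd74a, the invariant chain of antigen presentation, had 132, 219.9 and 161 CPM at 1 dpi and 417 and 165 CPM at 5 dpi (adjusted p-value 0.393). c1qc and cd74a were chosen after their values were seen. MFAP4 (ENSDARG00000090557), the member with the largest value above 0, had 1.7, 1.34 and 6.25 CPM at 1 dpi and 9.36 and 31.3 CPM at 5 dpi (adjusted p-value 0.146).

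Of 30 lysosome, lipid and phagocytosis genes, 1 fell and 0 rose, against 1.03% and 0.651% of all genes. Without overlap 10 were lower and 1 higher, against 21.5% and 16.3%. DESeq2's Wald test called 5 lower of 34, against 5.47% of all genes. The gene that fell with edgeR was CTSB, the lysosomal protease cathepsin B, with 135, 133 and 137 CPM at 1 dpi and 23.6 and 37.7 CPM at 5 dpi. Its 3 libraries of day 1 were nearly equal and both of day 5 were lower (log2 fold change -2.14, SE 0.39, adjusted p-value 0.0316), and it was called in 5 of 10 alternatives. The median log2 fold change of the list was -0.37.

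Inflammatory mediators had a median fold change below 0, and no gene passed the test. Of 30 tested with edgeR, 0 rose and 0 fell. An unadjusted p-value under 0.05, in either direction, was reached by 13, against 8.43% of all genes higher and 11% lower. Without overlap 15 were lower and 0 higher, against 21.5% and 16.3% of all genes. The median log2 fold change was -1.61. DESeq2's Wald test called 10 lower of 32 members it tested, against 5.47% of all genes. il11a, a cytokine of the interleukin 6 family induced early in regenerating fish tissue, had 21.6, 16 and 98.9 CPM at 1 dpi and 1.97 and 0.225 CPM at 5 dpi. Replicate 4 on day 1 stood far above the others, and both 5 dpi libraries were lower than all of them (log2 fold change -5.27, SE 1.14, adjusted p-value 0.0561). PTGS2, which makes prostaglandins, had 35.7, 23.6 and 39 CPM at 1 dpi and 1.7 and 6.2 CPM at 5 dpi (log2 fold change -3.07, SE 0.69, adjusted p-value 0.0639). il1b, the cytokine interleukin 1β, had 5.47, 2.32 and 8.99 CPM at 1 dpi and 0.372 and 0.113 CPM at 5 dpi (adjusted p-value 0.141). nos2a, the inducible nitric oxide synthase, had 14.2, 19.2 and 5.37 CPM at 1 dpi and 1.49 and 0 CPM at 5 dpi (0.156), and il11b had 15.8, 5.19 and 7.86 CPM at 1 dpi and 1.28 and 0 CPM at 5 dpi (0.189). Each of these genes was lower without overlap. hbegfb, a growth factor of the EGF family, had 22.9, 8.67 and 27.4 CPM at 1 dpi and 25 and 7.77 CPM at 5 dpi, overlapping between the days (adjusted p-value 0.892).

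Neutrophil granule genes had 6 of 10 tested members lower without overlap and 1 higher, against 21.5% and 16.3% of all genes. With edgeR 0 were called. An unadjusted p-value under 0.05, in either direction, was reached by 4, against 8.43% of all genes higher and 11% lower. The Wald test of DESeq2 found 4 of these 10 lower, against 5.47% of all genes. npsn, a protease of neutrophils, had 4.18, 3.01 and 15.6 CPM at 1 dpi and 0 CPM in both libraries at 5 dpi and mpx, the myeloperoxidase of neutrophil granules, had 4.03, 3.52 and 16.7 CPM at 1 dpi and 0.0532 and 0 CPM at 5 dpi. Both were highest in replicate 4 of day 1 and at the floor in both libraries of day 5, at least 30.6-fold and 32.4-fold lower, with adjusted p-values of 0.0562 and 0.0581. Immediate early and stress genes had 20 of 32 members lower without overlap, against 21.5% of all genes, and a median log2 fold change of -1.09. With edgeR 0 were called, and 14 had an unadjusted p-value under 0.05, against the same 8.43% and 11% of all genes. By the same Wald test 12 of 35 were called lower, against 5.47% of all genes. The summed level of this list overlapped between the days, with 2721 to 5237 CPM at 1 dpi and 4664 and 3355 CPM at 5 dpi. hsp70.1, a chaperone induced by heat and injury, had 51.3, 8.16 and 9.28 CPM at 1 dpi and 0.106 and 0.676 CPM at 5 dpi, high in replicate 2 of day 1 (adjusted p-value 0.0556), and JUNB, of the AP-1 transcription factor, had 137, 139.6 and 367 CPM at 1 dpi and 46.4 and 13.6 CPM at 5 dpi (0.0702). Interferon response genes had a median of -0.93 and cell cycle genes one of -0.92. With edgeR 0 were called among 18 and 34 tested, and 4 and 8 had an unadjusted p-value under 0.05, against the same 8.43% and 11%. Without overlap 5 and 15 were lower, against 21.5% of all genes, and 1 and 2 were higher, against 16.3%. DESeq2 called 3 lower in each list, of 19 and 36 it tested, against 5.47% of all genes. The proliferation marker mki67 had 32.6, 58.6 and 54.9 CPM at 1 dpi and 24.8 and 15.2 CPM at 5 dpi (adjusted p-value 0.181). The macrophage list summed to 1004 CPM in 5 dpi replicate 1 and 469 CPM in replicate 2. On this TMM scale replicate 1 was close to the lowest of day 1. The TMM factors, by which library totals are multiplied, were 1.197, 1.21 and 1.206 at 1 dpi and 0.681 and 0.841 at 5 dpi. In plain shares of counts both 5 dpi libraries therefore lay below every 1 dpi library. The part of the number of macrophage nuclei in these lists was not tested. The inflammatory list summed to 635 to 1417 CPM at 1 dpi and 436 and 357 CPM at 5 dpi.

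**Figure D3:**
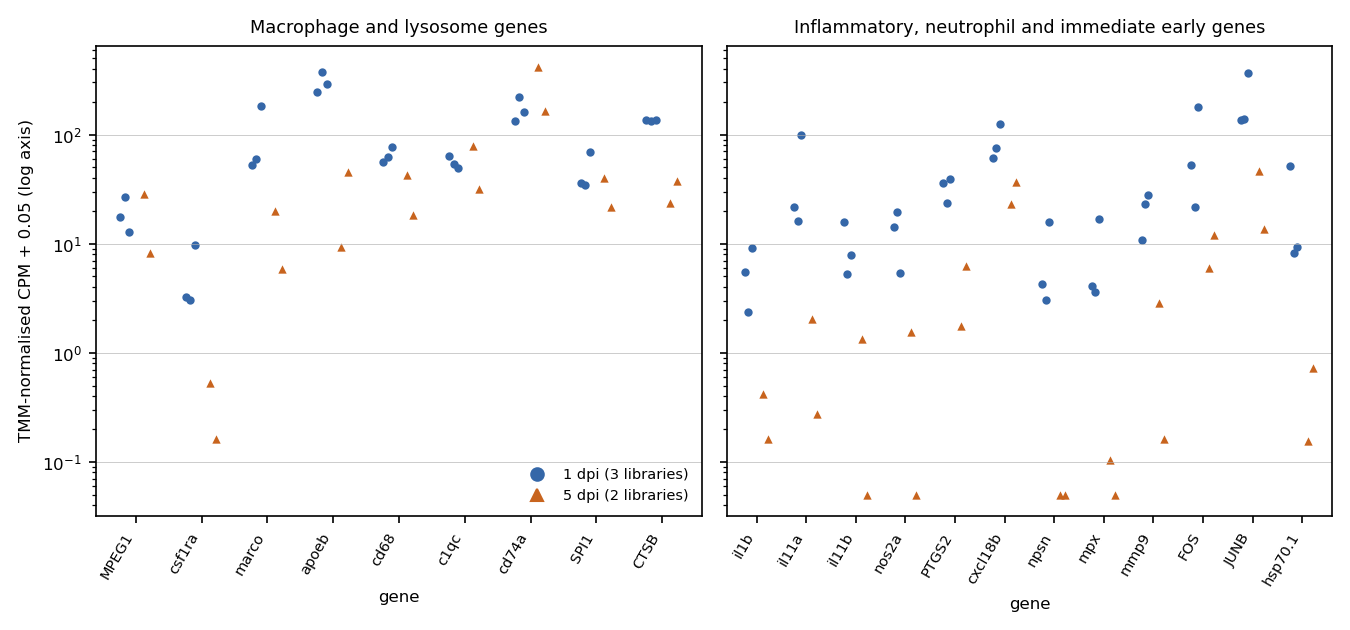
TMM-normalised CPM + 0.05 (log axis) in each library for 9 macrophage and lysosome genes (left) and 12 inflammatory, neutrophil and immediate early genes (right), with circles for 1 dpi and triangles for 5 dpi. MPEG1, c1qc, cd74a and SPI1 overlap between the days, all genes on the right are lower at 5 dpi without overlap, and only apoeb and CTSB passed the test.

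Genes of the sarcomere were among those that rose. Of 24 cardiomyocyte genes tested 4 rose and 0 fell, against 0.651% and 1.03% of all genes, and 20 were higher without overlap, against 16.3%. The median log2 fold change was 1.34, and DESeq2's Wald test called 18 higher of 25, against 3.91% of all genes. MYH6 (ENSDARG00000079564), a cardiac myosin heavy chain, had 4591 and 3282 CPM at 5 dpi against 176, 237 and 216 CPM at 1 dpi. It was 18.8-fold higher (log2 fold change 4.23, SE 0.37, adjusted p-value 0.00194) and the only named gene that was called in all 10 alternatives. MYH7 (ENSDARG00000079782), a second myosin heavy chain, had 29070 and 38690 CPM at 5 dpi against 4182, 7949 and 5662 CPM at 1 dpi (log2 fold change 2.51, SE 0.42, adjusted p-value 0.0233). Both 5 dpi libraries lay far above the highest of day 1. The calcium-binding troponin tnnc1a had 2996 and 2937 CPM at 5 dpi against 704, 518 and 903 CPM at 1 dpi (log2 fold change 2.07, SE 0.36, adjusted p-value 0.0269), and MYBPC3, the cardiac myosin-binding protein C, had 5636 and 5188 CPM at 5 dpi against 1305, 1879 and 1211 CPM at 1 dpi (log2 fold change 1.89, SE 0.36, adjusted p-value 0.0359). Symbols in capitals are those of the reference table and can be shared by several zebrafish copies, and reads of near-identical myosin genes could be split among copies. A gene named myh6 (ENSDARG00000090637) had 2490, 939 and 1087 CPM at 1 dpi and 83.3 and 4063 CPM at 5 dpi, so the libraries of day 5 lay on either side of day 1 (adjusted p-value 0.871). The natriuretic peptides nppa and nppb, hormones of stretched heart muscle, had log2 fold changes of -0.70 and -1.28 with adjusted p-values of 0.631 and 0.438, and these 3 genes were chosen after their values were seen.

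Besides MYH6, the 12 genes with the smallest p-values that rose included ldb3b and hspb6, both of muscle, and dtnba. ldb3b, a protein of the Z-disc, had 1893 and 1814 CPM at 5 dpi against 341, 274 and 367 CPM at 1 dpi (log2 fold change 2.5, SE 0.33, adjusted p-value 0.0106). hspb6, a small heat shock protein of muscle, had 319 and 407 CPM at 5 dpi against 55.1, 39.8 and 61.7 CPM at 1 dpi (log2 fold change 2.80, SE 0.35, adjusted p-value 0.00837). dtnba, a β-dystrobrevin, had 323 and 266 CPM at 5 dpi against 65.2, 46.9 and 55.3 CPM at 1 dpi (log2 fold change 2.4, SE 0.34, adjusted p-value 0.0125). In all 3 genes the day 1 libraries formed a narrow group with both day 5 libraries well above it. Of genes chosen after their values were seen, the oxygen carrier of muscle mb (myoglobin) had 44540 and 24490 CPM at 5 dpi against 8018, 8560 and 9737 CPM at 1 dpi (log2 fold change 1.98, SE 0.41, adjusted p-value 0.0488), tnni4a, an inhibitory troponin, had 4769 and 5972 CPM at 5 dpi against 658, 1164 and 729 CPM at 1 dpi (log2 fold change 2.66, SE 0.39, adjusted p-value 0.0133), and XIRP2, NRAP, MYOM1 (ENSDARG00000104836), JPH2, CASQ2 and trdn, proteins of the sarcomere and of calcium release, rose by log2 fold changes of 1.77 to 2.26. A second MYOM1 gene (ENSDARG00000061249) was not called (log2 fold change 1.67, SE 0.54, adjusted p-value 0.141). MEF2C (ENSDARG00000029764), a transcription factor of muscle, and PPARGC1A, which drives mitochondrial growth, rose by 2.42 (SE 0.36) and 1.94 (SE 0.33), with adjusted p-values of 0.0133 and 0.0253. Another MEF2C gene (ENSDARG00000009418) was not called (log2 fold change 0.46, SE 0.41, adjusted p-value 0.6). The skeletal muscle actin ACTA1 (ENSDARG00000055618) was the only member of a fast skeletal muscle list of 20 to rise, with 13120 and 8329 CPM at 5 dpi against 2871, 996 and 1611 CPM at 1 dpi (log2 fold change 2.55, SE 0.49, adjusted p-value 0.0365). In that list 15 of 20 members were below 0 and the median was -2.4, but 0.82 without 1 dpi replicate 2. Its summed level was 3.77 times as high at 5 dpi (22400 and 16470 CPM) as at 1 dpi (7317, 3570 and 4574 CPM), and the members with the highest levels were ACTA1 and the muscle creatine kinase ckma, with 7056 and 7486 CPM at 5 dpi against 2890, 2429 and 2759 CPM at 1 dpi. The sum and the median thus differ in direction. With edgeR 1 of 20 members rose, against 0.651% of all genes. With DESeq2 3 of 25 members were called higher and 4 lower, against 3.91% and 5.47%.

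All 32 nuclear genes of oxidative phosphorylation had log2 fold changes above 0 (median 1.27), 25 were higher without overlap, against 16.3% of all genes, and 1 rose, against 0.651%. This was NDUFS1, a subunit of complex I, with 872 and 527 CPM at 5 dpi against 229, 186 and 219 CPM at 1 dpi (log2 fold change 1.73, SE 0.35, adjusted p-value 0.0448). All 13 protein genes of the mitochondrial genome were likewise above 0 (median 1.39), and MT-ND3 rose, with 146 and 76.3 CPM at 5 dpi against 28.8, 31.4 and 28.6 CPM at 1 dpi (log2 fold change 1.91, SE 0.39, adjusted p-value 0.0478). These 13 genes are not carried in the nucleus, and how their RNA came into libraries of nuclei was not tested. With DESeq2's Wald test the calls were 16 of 32 and 6 of 13, each higher at 5 dpi, against 3.91% of all genes. In NDUFS1 and MT-ND3 replicate 1 was the higher of the 5 dpi pair. Without replicate 1 the medians of these lists were 0.47 and 0.42, against -0.35 for all genes. Without replicate 2 they were 1.73 and 1.90, against -0.41 for all genes. In the glycolysis and hypoxia list DESeq2's Wald test called 10 higher and 1 lower of 35, against 3.91% and 5.47% of all genes. With edgeR 1 of 35 rose, against 0.651%. This was VEGFA, the growth factor of blood vessels, with 374 and 607 CPM at 5 dpi against 101, 159 and 146 CPM at 1 dpi (log2 fold change 1.86, SE 0.37, adjusted p-value 0.0417). It was also the single gene of 34 on the list of resolution and growth factors to rise with edgeR, against 0.651% of all genes. DESeq2's Wald test called 4 higher of 37 on that list, against 3.91%.

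In TMM-normalised CPM the cardiomyocyte list sum was 2.86 times as high at 5 dpi (191100 and 169700) as at 1 dpi (56660 to 75360), beside the muscle and energy genes above. This is not a ratio of plain shares of counts, because the TMM factors differed between the days. The number of cardiomyocyte genes that rose was 1 when any single 1 dpi library was left out. Over all genes 0.0531%, 0.0117% and 0.0235% rose without 1 dpi replicate 2, 3 and 4. With the spread of all 21 libraries 2 of 25 cardiomyocyte genes rose, against 0.0189% of all genes. Without 5 dpi replicate 1 or 2 the median of the list was 1.39 and 1.37, against -0.35 and -0.41 for all genes. The part of cardiomyocyte RNA carried by the pulldown was not tested.

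Further genes with small p-values that rose were of other kinds. ctrb.1, a chymotrypsinogen made by the exocrine pancreas, had 164 and 262 CPM at 5 dpi against 2.12, 5.79 and 1.42 CPM at 1 dpi. Both 5 dpi libraries were high and the rise was 68.2-fold (log2 fold change 6.09, SE 0.64, adjusted p-value 0.00338), but it also varied widely among sham hearts. On the scale of all 21 libraries it lay between 0 and 303 CPM in sham hearts at 1 dpi and between 0 and 1170 CPM in those at 14 dpi. sh3rf2, a scaffold of stress kinase signalling, had 96.1 and 79.5 CPM at 5 dpi against 9.19, 10.2 and 9.18 CPM at 1 dpi (log2 fold change 3.20, SE 0.39, adjusted p-value 0.00743). SLC24A4, a sodium, potassium and calcium exchanger, had 62.1 and 90.7 CPM at 5 dpi against 6.97, 5.29 and 8.26 CPM at 1 dpi (log2 fold change 3.48, SE 0.44, adjusted p-value 0.00837). In these genes no 1 dpi library came near a 5 dpi library. The sulfotransferase sult2st1, PHLDA1, the adhesion molecule SDK1 and RCAN2, a regulator of the phosphatase calcineurin, rose by log2 fold changes of 2.91, 2.58, 2.44 and 2.49, with SEs of 0.39, 0.34, 0.34 and 0.36 and adjusted p-values of 0.0106 to 0.0133. SDK1 was steady on day 1, at 75.6 to 78.6 CPM, and had 331 and 504 CPM on day 5. ALAS1, the rate-limiting enzyme of heme synthesis, and sostdc1a, a secreted antagonist of BMP and Wnt signals, were chosen after their values were seen. ALAS1 had 7072 and 3597 CPM at 5 dpi against 728, 618 and 1042 CPM at 1 dpi (log2 fold change 2.74, SE 0.42, adjusted p-value 0.0164) and sostdc1a had 38 and 39.5 CPM at 5 dpi against 3.98, 3.52 and 4.64 CPM at 1 dpi (log2 fold change 3.26, SE 0.50, adjusted p-value 0.0164).

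**Figure D4:**
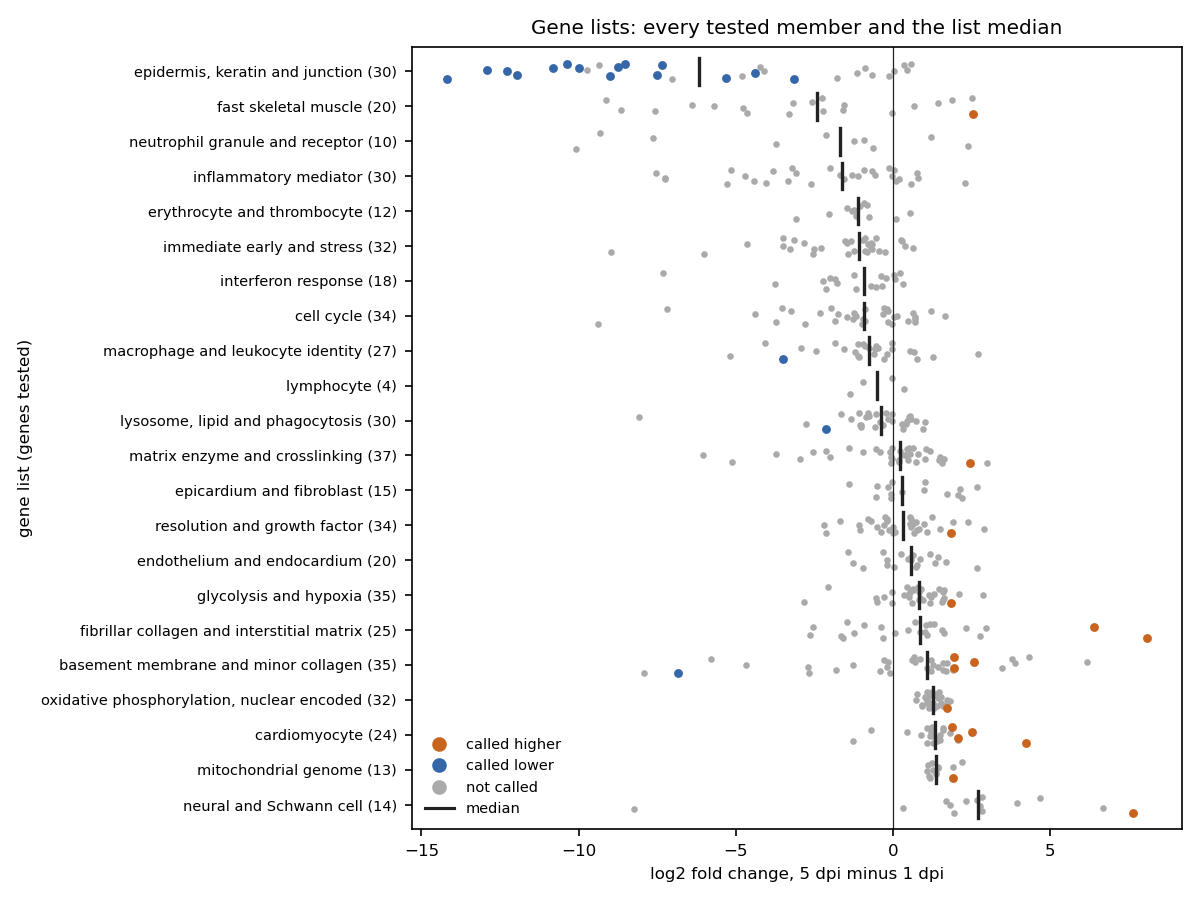
Log2 fold change from 1 to 5 dpi (horizontal axis) of every tested member of 22 gene lists (vertical axis, with the number tested), with called members in colour and the list median as a bar. The epithelial list reaches furthest below 0 with a median of -6.16 and 15 genes lower, all members of the mitochondrial genome and oxidative phosphorylation lists and 22 of 24 of the cardiomyocyte list lie above 0, and the neural list has the highest median, 2.71, with 1 gene called.

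Among 35 basement membrane and minor collagen genes 3 rose and 1 fell, against 0.651% and 1.03% of all genes, with 17 higher and 5 lower without overlap, against 16.3% and 21.5%. The median log2 fold change was 1.09. DESeq2's Wald test called 11 higher and 4 lower of 39 it tested, against 3.91% and 5.47% of all genes. COL4A1 and COL4A2, the chains of the collagen IV network under epithelium, endothelium and around muscle fibres, rose together. COL4A1 had 679.9 and 795 CPM at 5 dpi against 146, 178 and 253 CPM at 1 dpi (log2 fold change 1.94, SE 0.36, adjusted p-value 0.0319) and COL4A2 had 139.5 and 202 CPM at 5 dpi against 21.8, 30.8 and 33.2 CPM at 1 dpi (log2 fold change 2.58, SE 0.37, adjusted p-value 0.0133). col6a1, of the microfibrils around muscle cells, had 177 and 193 CPM at 5 dpi against 35.2, 54 and 55.3 CPM at 1 dpi (log2 fold change 1.94, SE 0.36, adjusted p-value 0.0319). For each of them both day 5 libraries lay well above every day 1 library. col17a1b, the hemidesmosome collagen that anchors epidermal cells, fell instead, with 24, 34.4 and 28.5 CPM at 1 dpi and 0.106 and 0.451 CPM at 5 dpi (log2 fold change -6.85, SE 0.85, adjusted p-value 0.00805). Leaving out any single 1 dpi library left 0 of the 3 rises called. Over all genes 0.0531%, 0.0117% and 0.0235% rose without 1 dpi replicate 2, 3 and 4. The fall of col17a1b was lost without 1 dpi replicate 3 or 4, where 0.111% and 0.153% of all genes fell. Without 5 dpi replicate 1 or 2 the median of the list was 1.49 and 0.74.

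Genes of type I collagen did not pass the test. col1a1a had 1553 and 1218 CPM at 5 dpi against 412, 725 and 912 CPM at 1 dpi (log2 fold change 1.02, SE 0.40, adjusted p-value 0.206) and COL1A2 had 1728 and 1971 CPM at 5 dpi against 423, 919 and 1074 CPM at 1 dpi (log2 fold change 1.2, SE 0.42, adjusted p-value 0.172), both higher without overlap. Among 25 fibrillar collagen and interstitial matrix genes 8 were higher and 5 lower without overlap, against 16.3% and 21.5% of all genes. With edgeR 2 rose, THBS4 and elnb, and 0 fell, against 0.651% and 1.03%. DESeq2's Wald test called 4 higher and 1 lower of 30, against 3.91% and 5.47%. THBS4 (ENSDARG00000020072), a thrombospondin of tendon and muscle matrix, had no counts on day 1 outside replicate 4, which held 7, with 35.1 and 30.8 CPM at 5 dpi against 0, 0 and 0.342 CPM at 1 dpi (log2 fold change 8.09, SE 1.23, adjusted p-value 0.016). elnb, an elastin of the outflow tract of the fish heart, had 23 and 52.4 CPM at 5 dpi against 0.62, 0.695 and 0 CPM at 1 dpi (log2 fold change 6.40, SE 1.09, adjusted p-value 0.0245). FN1 (ENSDARG00000019815), the fibronectin of early wound matrix, had 254, 347 and 537 CPM at 1 dpi and 197 and 44.2 CPM at 5 dpi (adjusted p-value 0.19), and a second FN1 gene (ENSDARG00000006526) overlapped between the days (0.773). The median of this list, 0.88, was -0.59 without 5 dpi replicate 1.

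Of 37 matrix enzyme and crosslinking genes 1 rose and 0 fell with edgeR, against 0.651% and 1.03% of all genes. Without overlap 6 were higher and 8 lower, against 16.3% and 21.5%. DESeq2's Wald test called 3 higher and 6 lower of 40, against 3.91% and 5.47%. MMP2, the gelatinase that cuts collagen IV, had 66 and 89.7 CPM at 5 dpi against 12.7, 17.1 and 12.5 CPM at 1 dpi. Both 5 dpi libraries lay far above the highest of day 1 (log2 fold change 2.46, SE 0.40, adjusted p-value 0.0202). TIMP2 (ENSDARG00000075261), a tissue inhibitor of metalloproteinases, had 279.9, 452 and 266 CPM at 1 dpi and 84.5 and 28.6 CPM at 5 dpi and missed the threshold (log2 fold change -2.55, SE 0.54, adjusted p-value 0.0511). mmp9, the gelatinase of neutrophils and macrophages, had 10.8, 22.8 and 27.7 CPM at 1 dpi and 2.82 and 0.113 CPM at 5 dpi (adjusted p-value 0.12).

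Over all genes edgeR called 0.651% higher and 1.03% lower, and DESeq2's Wald test 3.91% and 5.47%. Unadjusted p-values under 0.05 with edgeR were reached by 8.43% that were higher and 11% that were lower. In the remaining marker lists edgeR called 1 gene, among 14 of neural and Schwann cells. PHOX2A, a transcription factor of autonomic neurons, had 1.49 and 47 CPM at 5 dpi against 0.0516, 0.232 and 0.0488 CPM at 1 dpi (log2 fold change 7.66, SE 1.45, adjusted p-value 0.0358), so its size rests on replicate 2. With DESeq2 7 of 18 were called higher and 1 lower. mbpa, the myelin basic protein of Schwann cells, had 5.69 and 319 CPM at 5 dpi against 0.258, 4.36 and 0.0488 CPM at 1 dpi (adjusted p-value 0.0865). The summed level of the list was 36.3 to 61.0 CPM on day 1, 79.2 CPM in replicate 1 of day 5 and 876 CPM in replicate 2, and its median was 2.71, and -1.02 without replicate 2. Endothelial genes had a median of 0.58 with 0 of 20 called by edgeR, 4 at an unadjusted p-value under 0.05 and 3 called higher by DESeq2, of 21 it tested, and cdh5, the cadherin of vessel walls, was higher without overlap, with 167 and 144 CPM at 5 dpi against 43.7, 68.7 and 61.2 CPM at 1 dpi (adjusted p-value 0.0785). Epicardial and fibroblast genes had a median of 0.29 with 0 of 15 called by edgeR, 7 at an unadjusted p-value under 0.05 and 4 called higher and 1 lower by DESeq2, and TCF21, a transcription factor of both, had 27 and 75.1 CPM at 5 dpi against 11.6, 14.3 and 19.8 CPM at 1 dpi (0.126). Erythrocyte and thrombocyte genes had a median of -1.11 with 0 of 12 called by edgeR, 5 at an unadjusted p-value under 0.05 and 3 called lower by DESeq2. The 4 lymphocyte genes tested had a median of -0.50, with 0 called by either tool and 0 at an unadjusted p-value under 0.05. gata1a, a transcription factor of red cells and thrombocytes chosen after its values were seen, had 64.2, 87.5 and 28 CPM at 1 dpi and 5.05 and 8.56 CPM at 5 dpi and fell (log2 fold change -3.14, SE 0.61, adjusted p-value 0.0379).

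The same genes were then followed in the other hearts, where sham and cryoinjured libraries share none with the comparison above. Values are on a common scale of all 21 libraries, so they differ from those above. krt5 had 1160 to 2220 CPM in resected hearts and 1000 to 2190 CPM in cryoinjured hearts at 1 dpi, but 0.0173 to 1.1 CPM in sham hearts of that day. By 5 dpi no group exceeded 4.15 CPM, and at 14 dpi sham hearts reached 53.7 CPM and cryoinjured hearts 42.1 CPM. pkp3a had 55.0 to 114 CPM after resection and 116 to 225 CPM after cryoinjury at 1 dpi and at most 4.54 CPM in every other library. Both genes were thus high in the 2 injured groups of day 1, as were several other epithelial genes. agr2 had 31.8 to 103 CPM after resection, 29.9 and 176 CPM after cryoinjury and 0 CPM in sham hearts of that day. epcam had 37.2 to 75.1 CPM, 22.3 and 37.3 CPM and at most 0.0392 CPM in these groups. Some epithelial genes were instead much lower after cryoinjury than after resection. elf3 had 15.8 to 30.5 CPM after resection and 0.0663 and 1.05 CPM after cryoinjury, and itgb6 had 6.45 to 13.0 CPM and 1.49 and 2.05 CPM. muc5.2 differed between the cryoinjured libraries of day 1, with 4.18 and 254 CPM. The epithelial list summed to 4738 to 8034 CPM in resected, 6700 and 10090 CPM in cryoinjured and 2889 to 5987 CPM in sham hearts of day 1, so the highest sham library lay above the lowest resected one.

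Of the 185 genes that fell after resection, 107 (57.8%) were lower without overlap from 1 to 5 dpi after cryoinjury, against 18.2% of all genes tested, and 8 (4.32%) were higher. In sham hearts 5 (2.7%) were lower, against 7.29% of all genes, and 15 (8.11%) were higher, but 122 of the 185 were under 1 CPM in all sham libraries of day 1 and had little room to fall. Of the 117 genes that rose, 37 (31.6%) were higher after cryoinjury, against 17.3% of all genes, and 21 (17.9%) were lower, against 18.2%. In sham hearts 18 (15.4%) of the 117 were higher, against 15.8% of all genes, and 10 (8.55%) were lower, against 7.29%. These are counts of 2 or 3 libraries a group, given as a description without a test.

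MYH6 was also higher on day 5 in the hearts that were not resected. It had 118 to 167 CPM at 1 dpi and 2140 and 3050 CPM at 5 dpi after resection, 286 and 388 CPM and then 1720 and 5700 CPM after cryoinjury, and 208 to 503 CPM and then 1260 and 6840 CPM in sham. At 14 dpi sham hearts had 170 to 550 CPM and cryoinjured hearts 1360 to 7260 CPM. MYH7 had 2810 to 5590 CPM in resected hearts at 1 dpi and at least 11900 CPM in every other library, so for this gene the resected libraries of day 1 were the ones that stood apart. The cardiomyocyte list likewise summed to 38600 to 50600 CPM in resected hearts of day 1, 84990 to 116700 CPM in cryoinjured and 106500 to 245300 CPM in sham hearts of that day, and 110700 to 127100 CPM in resected hearts of day 5.

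**Figure D5:**
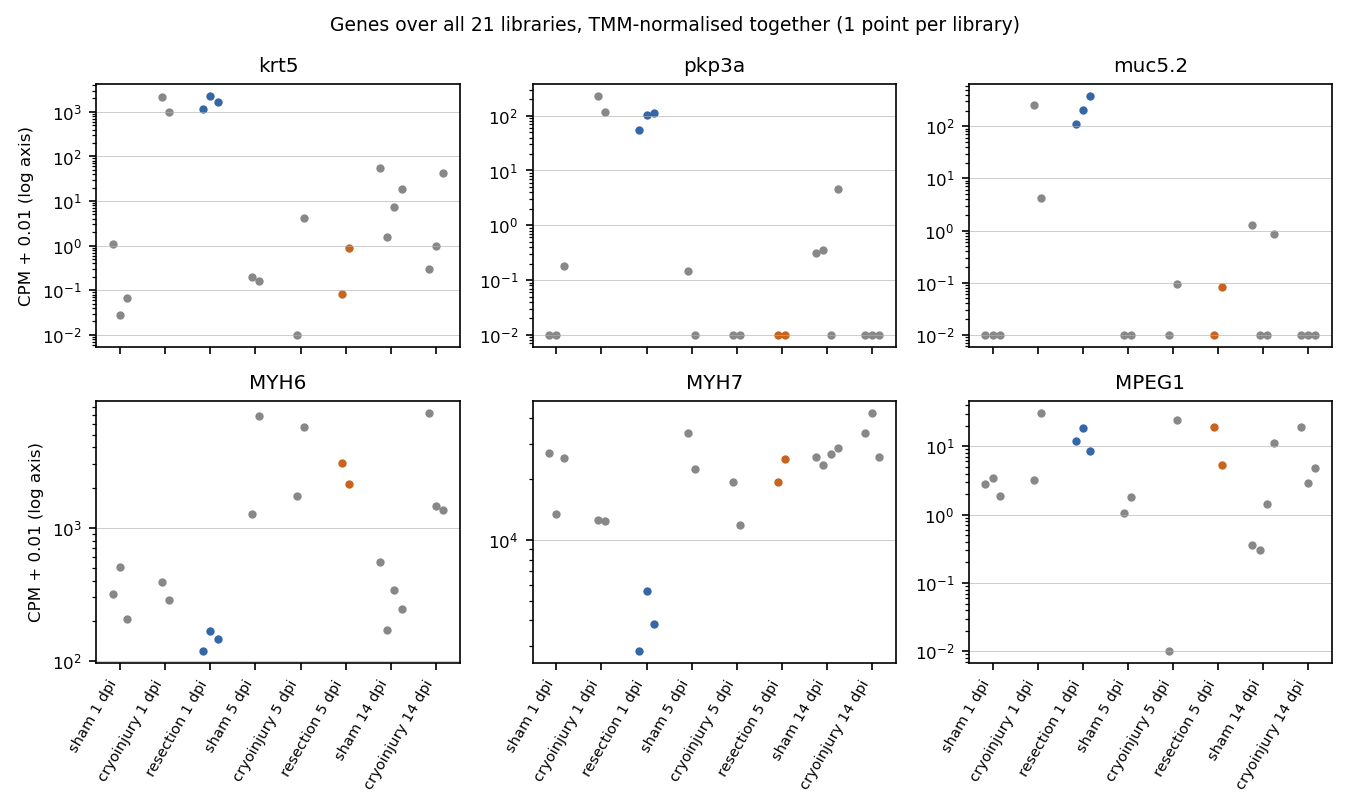
TMM-normalised CPM + 0.01 (log axis) of 6 genes in all 21 libraries by group, 1 point per library, with resection at 1 dpi in blue and at 5 dpi in orange. krt5 and pkp3a are high in both injured groups of day 1 and low elsewhere, MYH6 is higher at 5 dpi than at 1 dpi in every group, MYH7 is lowest in resected hearts at 1 dpi, and MPEG1 varies within groups.

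Whether the change from 1 to 5 dpi differed between resection and the other hearts was tested by the interaction between day and injury. Against sham 0 of 19166 genes were called with edgeR, with p-values under 0.05 before adjustment in 2675 (14%) and a smallest adjusted p-value of 0.136. By the Wald test of DESeq2 there were 1376 calls (5.75%). Against cryoinjury 0 of 18727 were called with edgeR, with p-values under 0.05 before adjustment in 2732 (14.6%) and a smallest adjusted p-value of 0.112, and DESeq2's Wald test called 1557 (6.02%). Without cryoinjury replicate 3 at 1 dpi the edgeR count was 185, without cryoinjury replicate 4 at 5 dpi 147 and without resection replicate 2 at 5 dpi 44. For krt5 the log2 change after resection minus that in sham was -10.65 (SE 1.93, adjusted p-value 0.172). For MYH6 the change after resection differed from that in sham by 0.63 (SE 0.84, adjusted p-value 0.817) and from that after cryoinjury by 0.59 (SE 0.66, adjusted p-value 0.745). The calls from 1 to 5 dpi are therefore not shown to be particular to resection.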

How the data were processed

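Nuclear RNA of 21 libraries was sequenced by the authors as paired-end reads of 80 bases, mapped to danRer10 with STAR 2.4.2a and counted on genes with featureCounts, and the authors deposited these counts per gene without normalisation, one column per library. No molecular identifiers are described, so depth limits cover counting error only, and floors of 3 counts are used for lower bounds. Files hold 31953 gene IDs without positions, of which 25262 were named from a reference table and 1043 from the study's supplement. Left out were 2 columns that match no sample and 1 gene without values.

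The 5 resection libraries were fitted alone with edgeR 4.0.16 (limma 3.58.1, R 4.3.3): TMM normalisation, filterByExpr and the quasi-likelihood test of day, with Benjamini-Hochberg adjustment and a threshold of 0.05. Day by injury was tested as an interaction in a fit with the 1 and 5 dpi sham or cryoinjury libraries. Each SE given is the absolute log2 fold change divided by the square root of the F statistic of the quasi-likelihood test. Alternatives were DESeq2 1.42.0 with its Wald test, edgeR with DESeq2's size factors, a filter of only 1 count in total, a stricter filter of 10 counts per library, a common fit over the 21 libraries, each library left out in turn and, for the interactions, the replicate number as a block. When a 5 dpi library was left out, the lone other one was assumed to vary like day 1. The code was tested on simulated data.

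Named are the 12 called genes with a symbol and the smallest p-values in each direction, up to 4 members with the smallest p-values of each gene list, and 12 genes of interest to the study, and other genes are said in the text to have been chosen after their values were seen. The libraries compared and the gene lists were chosen with earlier results of these data known.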

Additional observations from a re-analysis of the deposited data

How the results depend on the processing

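The number of genes that rose or fell depended on the processing, and the cause was not tested. DESeq2's Wald test called 975 higher and 1363 lower, dropping the filter 570 and 577, at least 10 counts in every library 212 and 89, and the fit of all 21 libraries 4 and 0. The stricter filter removes genes at the floor by construction, and it moved the share of higher genes among calls from 38.7% to 70.4%. DESeq2's size factors in edgeR gave 121 and 187. Leaving out single libraries gave 2 to 433 higher and 19 to 508 lower. All 302 called genes had the same direction wherever they were tested (143 of them with at least 10 counts in every library). As they were without overlap to begin with, this is no separate support. The median log2 fold change of all genes was -0.10, -0.35 without 5 dpi replicate 1 and -0.41 without replicate 2. Of 115 named genes 110 had the same direction in every alternative, while 40 of the 41 called lost the call in at least 1. The direction turned in leave-outs of uncalled genes. Over these leave-outs ighm ranged from -7.92 (without 5 dpi replicate 2) to 0.46 (without 1 dpi replicate 3), with 0.06 without 5 dpi replicate 1. PAX5 ranged from -5.58 (without 5 dpi replicate 2) to 1.4 (without 5 dpi replicate 1), with -0.23 and -0.16 without 1 dpi replicates 2 and 3. GATA3 ranged from -2.17 (without 5 dpi replicate 2) to 0.78 (without 5 dpi replicate 1), with 0.35 without 1 dpi replicate 4. hbegfb ranged from -1.35 (without 5 dpi replicate 1) to 0.35 (without 5 dpi replicate 2), with 0.06 without 1 dpi replicate 4, and MPEG1 from -1.24 (without 5 dpi replicate 1) to 0.59 (without 5 dpi replicate 2), with 0.28 without 1 dpi replicate 3. No paired analysis was possible because the resection groups of 1 and 5 dpi share only 1 replicate number. In the interactions the replicate numbers could be used as a block, which gave 11 called genes against sham and 81 against cryoinjury, but same-numbered libraries did not deviate together (median correlation -0.02 over 10 pairs, range -0.12 to 0.07, against 0.01 over 27 other pairs). Against sham the interaction called 1376 genes with the Wald test, 180 without the filter, 12 with all 21 libraries and 0 to 2 in leave-outs. Against cryoinjury it called 1557, 455 without the filter, 1 with at least 10 counts in every library and 0 to 185 in leave-outs.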
